A study of Mus musculus with 4 samples.

Results

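Regnase, roquin and tristetraprolin proteins bring about the decay of inflammatory mRNAs, and this account follows the 10 genes that encode them and their close partners. They were taken by symbol from a table of 11111 genes, and all 10 were present: the Regnase genes Zc3h12a, Zc3h12c and Zc3h12d, the roquin genes Rc3h1 and Rc3h2, the tristetraprolin genes Zfp36, Zfp36l1 and Zfp36l2, and N4bp1 and Malt1. The table lists neither Zc3h12b nor Zfp36l3, the other genes of the Regnase and tristetraprolin families. Mean reads were 50 or more for all 10, and the deposited table was not filtered further.

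RNA sequencing was done on macrophages grown for 7 days from bone marrow of wild-type C57BL/6 mice, with fresh medium on day 4. Cells received a control morpholino (Ctrl MO, 2 libraries, called control 1 and control 2) or morpholinos against Regnase-1 (Reg1-MOs, 2 libraries, called treated 1 and treated 2). Morpholinos are antisense oligomers that block access to RNA without causing its cleavage by RNase H. In both groups 2 µM morpholino was carried into the cells by the peptide Endoporter (6 µl/ml) over 24 hours. Lipopolysaccharide (LPS, 10 ng/ml), a bacterial cell wall component, was then given for 4 hours. All 4 libraries are LPS-stimulated, so nothing below measures the response to LPS. The labels name a pair of targeting morpholinos, MO1 and MO2, and the Reg1-MOs columns are headed with the same names, so each of these libraries may hold 1 morpholino or both. The labels do not say whether libraries came from separate mice or cultures. The p-values therefore set a difference between groups against the variation among these libraries only, and part or all of that variation may be technical.

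Regnase-1 is an endonuclease that cuts mRNAs at stem-loops with a pyrimidine-purine-pyrimidine loop, and its own mRNA is among its targets. The roquins bind similar stem-loops, and tristetraprolin and its relatives bind AU-rich elements; both recruit the CCR4-NOT deadenylase complex, which shortens the poly(A) tail. MALT1 is a protease that cleaves Regnase-1, roquins and N4BP1. The Reg1-MOs were designed to cover stem-loops of the Regnase-1 mRNA and so to raise its level, which makes Zc3h12a the check of the treatment.

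The libraries held 23369753 to 25213695 reads in the table. All 8 listed macrophage markers were present, at a summed 14900 to 15100 RPM (reads per 1000000 reads of the library) with Ctrl MO and 13600 to 14100 with Reg1-MOs. By limma's moderated test, which called 12.2% of the whole table, 1 of the 8 rose and 2 fell. At an unadjusted p under 0.05, 2 were higher and 4 lower. Of 10 stromal and fibroblast markers, Lum and Pdgfra were not listed and the other 8 all fell by limma's moderated test, from a summed 156 to 160 RPM with Ctrl MO to 62.8 to 69.7 with Reg1-MOs. Of 9 neutrophil markers, 8 were listed and 0 passed by limma (1 lower at an unadjusted p under 0.05), at a summed 248 to 279 RPM against 205 to 274. A fall in bulk RNA cannot be told apart as fewer cells of a type or less RNA per cell, and the part of the stromal change in the values below was not tested. None of the dendritic cell or erythroid markers was listed. Of the lymphocyte markers only Cd4 was listed and did not pass. Of the mast cell and basophil markers only Kit was listed, and it fell.

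With Reg1-MOs, 4 of the 10 genes rose, Zc3h12a (2.14-fold), Zfp36l2 (1.84-fold), Zc3h12d (1.39-fold) and Zfp36l1 (1.35-fold), and none fell. The roquin genes, N4bp1, Zc3h12c, Zfp36 and Malt1 did not pass. The calls are those of limma's moderated test over all 11111 genes at a Benjamini-Hochberg adjusted p below 0.05, which called 12.2% of the table, 6.22% as higher and 6.03% as lower. At an unadjusted p under 0.05, Zfp36 (higher) and Malt1 (lower) were added, and limma-voom on the recovered reads called Malt1 lower. Both Reg1-MOs libraries lay above both Ctrl MO libraries for 5 of the 10 genes, as they did for 27.1% of the table, and below for 3, as for 31.8%. The median log2 change was 0.154 over the 10 genes and -0.026 over all genes. Without control 1 or without treated 1 the rises were 2, and without treated 2 there were 2 falls.

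**Figure D1:**
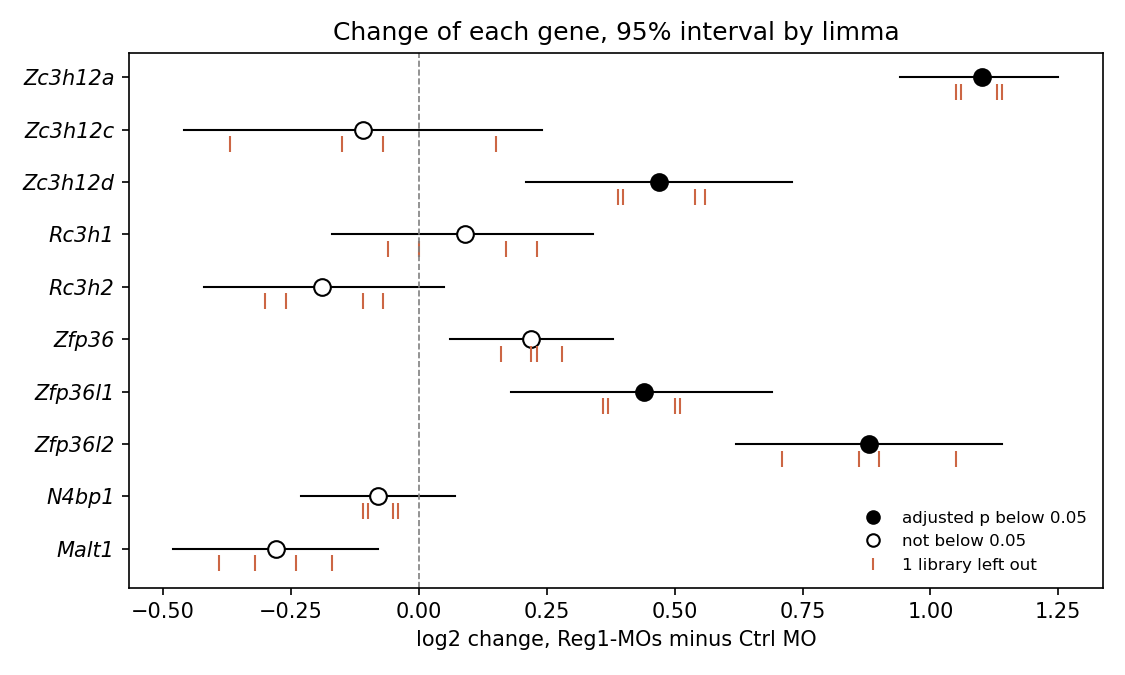
Log2 change of each of the 10 genes, Reg1-MOs minus Ctrl MO, with 2 libraries per group. Circles are limma estimates, filled where the adjusted p was below 0.05, lines are 95% intervals, and short bars are the estimates with 1 library left out; Zc3h12a and Zfp36l2 stand apart on the right, and the bars of Zc3h12c and Rc3h1 fall on both sides of 0.

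Zc3h12a (ENSMUSG00000042677; GRCm38 chromosome 4, 125118423 to 125127840, minus strand) encodes Regnase-1. Its 3′ untranslated region (UTR) of 856 bases in GENCODE M21 holds 4 stem-loops with a pyrimidine-purine-pyrimidine loop and a stem of at least 5 base pairs, G-U pairs included. They are shown because stem-loops of this kind are the sites that Regnase-1 cuts in its own mRNA. Each is given from 5′ to 3′ on the mRNA strand, which is the minus strand here. Capitals mark the loop, and U is written as T.

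Zc3h12a chr4:125119069-125119083: gatacaCATtgtatc

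Zc3h12a chr4:125118886-125118902: taggcacCATgtgcctg

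Zc3h12a chr4:125118690-125118702: atgtaTGCtgtgt

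Zc3h12a chr4:125118662-125118678: atttaaaTATtttaaat

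The stem-loops begin at bases 196, 377, 577 and 601 after the stop codon, and their stems have 6, 7, 5 and 7 pairs. Such a match is common, and 58.9% of the 1399 3′ UTRs of the table's genes within 20% of this length held at least 1. Among the other members, Rc3h1 held 12 such stem-loops, Rc3h2 9, Zc3h12c 6, Zc3h12d, Zfp36l2 and N4bp1 3 each and Zfp36 2. Zfp36l1 and Malt1 held none, while 85.0% and 75.0% of 3′ UTRs of their lengths held at least 1. For each gene only the 3′ UTR of 1 coding transcript was searched, that of Malt1 having 1380 bases, so other transcripts are not covered. Which of the 4 stem-loops of Zc3h12a the morpholinos cover is not given in the sources used here.

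Zc3h12a had 3407 and 3572 reads, as recovered from the deposited values, in the controls, against 7799 and 6753 in the treated libraries. Both treated libraries stood far above both controls, and the gap between treated libraries was small, at 0.08 on the log2 scale against 0.07 between controls. The log2 change was 1.10 (SE 0.07, 95% interval 0.94 to 1.25, limma adjusted p = 0.000401), at rank 114 from the top among the 11111 changes. It passed under all 11 alternatives run, at 1.05 to 1.14.

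Zc3h12c (GRCm38 chromosome 9, 52111344 to 52168572) encodes Regnase-3, a related endonuclease found in myeloid cells. Its reads were 4626 and 4899 in the controls, against 3753 and 4927 in the treated libraries. The treated libraries lay on either side of the controls, with a gap of 0.52 between them on the log2 scale, the widest of any of the 10 genes, against 0.08 between controls. The log2 change of -0.11 (SE 0.15, 95% interval -0.46 to 0.24, limma adjusted p = 0.67) did not pass. It was 0.15 without treated 1, and without treated 2 it was -0.37 and passed (adjusted p = 0.0407).

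Zc3h12d (GRCm38 chromosome 10, 7832470 to 7870396), which encodes Regnase-4, was the lowest of the Regnase genes at 241 and 271 reads in the controls, against 344 and 346 in the treated libraries. The groups did not overlap. It rose by 0.47 on the log2 scale (SE 0.11, limma adjusted p = 0.0355). Of the 4 libraries, only leaving out control 2 kept the call, and adjusted p was 0.0924 to 0.202 without each of the others and 0.097 without a variance trend.

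Regnase transcripts as a family went from a mean of 339 RPM (SD 10.2, n = 2) with Ctrl MO to 499 (SD 22.7, n = 2) with Reg1-MOs. With Ctrl MO, Zc3h12c held the larger part of them, and with Reg1-MOs Zc3h12a did. Zc3h12a made up 41.2% (Wilson 95% interval 40.1 to 42.2) and 40.9% (39.8 to 41.9) of the family's reads in the Ctrl MO libraries. It made up 65.6% (64.7 to 66.4) and 56.2% (55.3 to 57.0) in the Reg1-MOs libraries. These intervals cover counting error only. The difference of 19.8 percentage points exceeded the SD of 6.65 between Reg1-MOs libraries and 0.224 between Ctrl MO libraries, but 2 libraries against 2 cannot give a two-sided exact permutation p below 0.333, the value found here. Counted per length of merged exons, the share of Zc3h12a went from 61.5% to 77.8%, so it led in both groups on that scale. Without treated 1 the difference in the share of reads was 15.1 points and without treated 2 it was 24.5.

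Reads of Zc3h12a per read of Zc3h12c were 0.736 and 0.729 in the controls, against 2.08 and 1.37 in the treated libraries. The log2 changes of Zc3h12a and Zc3h12c differed by 1.20, and those of Zc3h12a and Zc3h12d by 0.62. Each is 1 of 9 differences between a pair of members that were compared within libraries, and for all 9 the exact permutation p was 0.333, the smallest possible, and 0.333 after Benjamini-Hochberg adjustment.

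**Figure D2:**
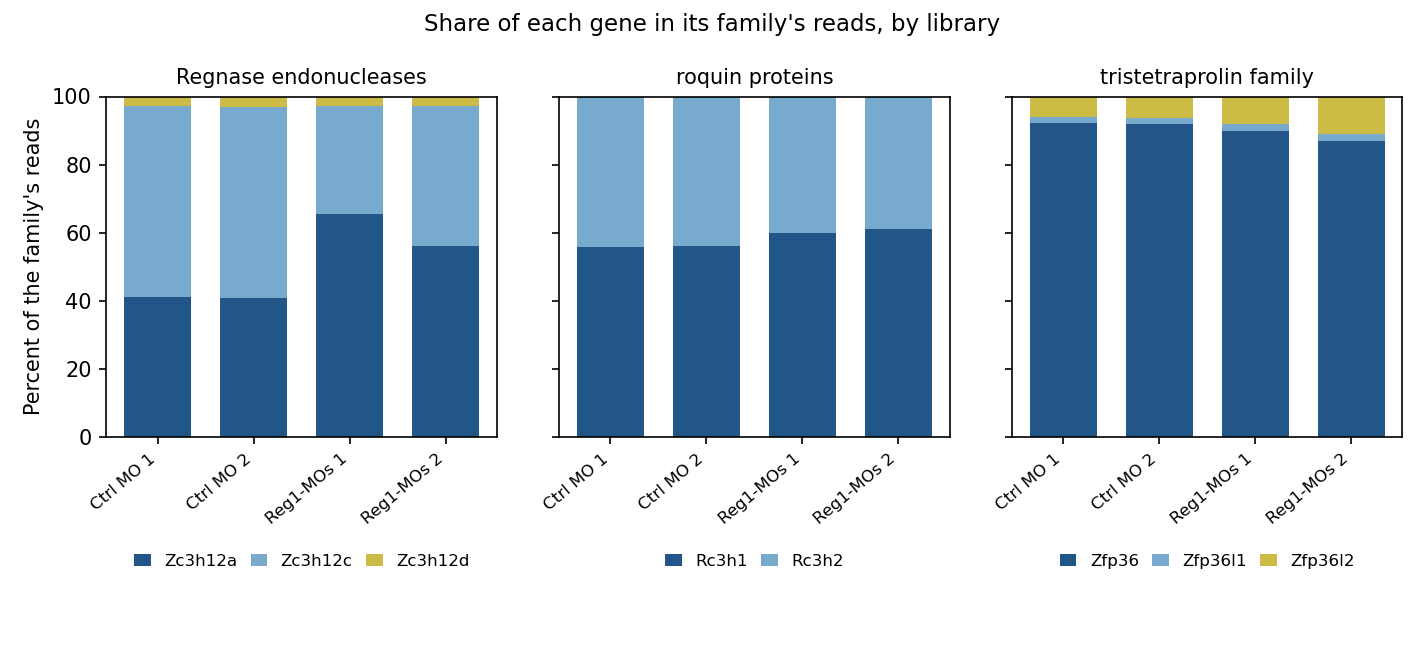
Percent of each family's reads held by each of its genes, in each of the 4 libraries. Zc3h12a takes 40.9% to 41.2% of Regnase reads with Ctrl MO and 56.2% to 65.6% with Reg1-MOs, while Zfp36 takes 86.9% to 92.1% of tristetraprolin reads in every library.

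The roquin genes Rc3h1 (GRCm38 chromosome 1, 160906418 to 160974978) and Rc3h2 (chromosome 2, 37370069 to 37422903) encode Roquin-1 and Roquin-2, which bind the constitutive decay element, a short stem-loop closed by TTC and GAA around a pyrimidine-purine-pyrimidine loop. A search for TTCNNNGAA with such a loop at the N positions, on the mRNA strand, found 2 in the 3′ UTR of Rc3h1, 1 in that of Rc3h2 and none in those of the other 8 genes. Among 3′ UTRs within 20% of the length, 28.9% of 173 for Rc3h1 and 17.5% of 463 for Rc3h2 held 1 or more, and 5.4% of all 10859 did. The stem-loops around these elements are shown because the roquins' own transcripts carry the kind of element that roquins bind, and because 1 of them is shared letter for letter. Rc3h1 lies on the plus strand and Rc3h2 on the minus strand, and capitals mark the loop.

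Rc3h1 chr1:160968038-160968054: tttgttcTGTgaatgaa

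Rc3h1 chr1:160971659-160971675: taacttcTGTgaagttg

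Rc3h2 chr2:37373808-37373824: taacttcTGTgaagttg

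Rc3h1 had 1703 and 1910 reads in the controls, against 1761 and 1976 in the treated libraries. The groups overlapped. Its log2 change was 0.09 (SE 0.11, 95% interval -0.17 to 0.34, limma adjusted p = 0.636), and it was -0.06 without treated 2 and 0.23 without treated 1. Rc3h2 had 1355 and 1498 reads against 1175 and 1262. Its treated libraries lay narrowly below the controls on the normalised scale, at 5.92 and 6.15 against 6.15 and 6.30. Its log2 change was -0.19 (SE 0.10, 95% interval -0.42 to 0.05, limma adjusted p = 0.259), and -0.07 without treated 1.

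Rc3h1 held 55.7% (Wilson 95% interval 53.9 to 57.4) and 56.0% (54.4 to 57.7) of roquin reads with Ctrl MO and 60.0% (58.2 to 61.7) and 61.0% (59.3 to 62.7) with Reg1-MOs. The difference of 4.64 percentage points was above the SDs of 0.251 and 0.739, with an exact permutation p of 0.333. As a family, roquins had 129 RPM in both groups (SD 8.75 with Ctrl MO and 13.8 with Reg1-MOs, n = 2 each, exact permutation p = 1.0).

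Zfp36 (GRCm38 chromosome 7, 28376784 to 28380253) encodes tristetraprolin, whose paired zinc fingers bind AU-rich elements and whose transcript LPS is known to induce. Zfp36l1 (chromosome 12, 80107754 to 80113013) and Zfp36l2 (chromosome 17, 84183931 to 84187947) encode its relatives BRF1 and BRF2. The core heptamer TATTTAT, searched on the mRNA strand, occurred 3 times in the 3′ UTR of each of the 3 genes, and 20.2% of the 1330 3′ UTRs of like length for Zfp36 and 37.8% of the 1494 for Zfp36l1 and of the 1490 for Zfp36l2 held at least 1. The nonamer TATTTATTT, which is the heptamer followed by TT, occurred once in Zfp36l1 and once in Zfp36l2. Other nonamers around the heptamer were not searched, so its absence from Zfp36 concerns this form only. It was found in 11.1% and 11.3% of 3′ UTRs of like length. Both nonamers are shown with 8 bases on each side, since each contains the core heptamer, and capitals mark the nonamer. Both genes lie on the minus strand.

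Zfp36l1 chr12:80108168-80108192: tgttggatTATTTATTTtagaaatt

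Zfp36l2 chr17:84184681-84184705: gtatgtaaTATTTATTTcattaatt

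Among the other genes, Rc3h2 held 1 nonamer of this form, and Zc3h12a, Zc3h12d and N4bp1 held no heptamer. Of the genes that rose, Zfp36l1 and Zfp36l2 held the heptamer and Zc3h12a and Zc3h12d did not. Of those that did not pass, Rc3h1, Rc3h2, Zc3h12c and Malt1 held 2 or 3 and Zfp36 held 3.

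Zfp36l2 had 932 and 957 reads in the controls, against 1572 and 1822 in the treated libraries. The controls were close together and both treated libraries were well above them, treated 2 more than treated 1. The log2 change was 0.88 (SE 0.11, 95% interval 0.62 to 1.14, limma adjusted p = 0.00379). It passed with any 1 of the 4 libraries left out, at 0.71 to 1.05, and under the other alternatives except that without a variance trend (adjusted p = 0.0595).

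Zfp36l1 had 265 and 294 reads in the controls, against 367 and 368 in the treated libraries. The groups did not overlap, and it rose by 0.44 (SE 0.11, limma adjusted p = 0.0407). Leaving out any 1 of the 4 libraries ended the call, at an adjusted p from 0.0712 to 0.238, and so did a fit without a variance trend (adjusted p = 0.102). Of its merged exons, 55.9% overlap the long non-coding gene Gm26669 on the opposite strand, and the strand setting of the counting is not given in the sources used here, so reads of the pair cannot be told apart.

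Zfp36 was far more abundant, with 14033 and 13925 reads against 17256 and 14560. Both treated libraries were above the controls on the normalised scale, at 9.80 and 9.68 against 9.52 and 9.51. The log2 change of 0.22 (SE 0.07, 95% interval 0.06 to 0.38, limma adjusted p = 0.073) did not pass. It passed without treated 2 (adjusted p = 0.0406) and with quantile normalization (adjusted p = 0.0464).

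Tristetraprolin itself supplied most transcripts of its family in every library, and Zfp36l2 took a larger share with Reg1-MOs. Zfp36 held 92.1% (Wilson 95% interval 91.7 to 92.6) and 91.8% (91.3 to 92.2) of the family's reads with Ctrl MO. It held 89.9% (89.5 to 90.3) and 86.9% (86.4 to 87.4) with Reg1-MOs. Zfp36l2 held 6.12% and 6.31% in the controls, against 8.19% and 10.9% in the treated libraries, a difference of 3.32 percentage points against SDs of 0.132 and 1.90 (exact permutation p = 0.333). Without treated 2, the share of Zfp36 differed by -2.05 points in place of -3.54. The family as a whole went from 607 RPM (SD 6.82, n = 2) to 748 (SD 43.7, n = 2), with an exact permutation p of 0.333.

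N4bp1 (GRCm38 chromosome 8, 86808160 to 86885258) encodes an RNase related to the Regnases that restrains cytokine production. Its reads were 9331 and 9680 in the controls, against 8929 and 8607 in the treated libraries. The change was -0.08 (SE 0.06, 95% interval -0.23 to 0.07, limma adjusted p = 0.467) with the treated libraries just below the controls, and 0 after quantile normalization. Its interval excludes a change as large as that of Zc3h12d or Zfp36l1 in either direction.

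Malt1 (GRCm38 chromosome 18, 65430938 to 65479067) encodes the protease that cleaves Regnase-1, the roquins and N4BP1. It had 29406 and 30968 reads in the controls, against 23442 and 24952 in the treated libraries. Both treated libraries were below both controls. The log2 change was -0.28 (SE 0.08, 95% interval -0.48 to -0.08, limma adjusted p = 0.0695), and it passed without treated 2 (-0.39, adjusted p = 0.0363) but stood at -0.17 without treated 1.

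Malt1 and Zc3h12a were at different balances in the groups. There were 8.63 and 8.67 Malt1 reads for each Zc3h12a read in the controls, against 3.01 and 3.69 in the treated libraries, a difference of -1.38 in the log2 ratio (exact permutation p = 0.333). This ratio does not depend on the scaling between libraries. For N4bp1 over Zc3h12a the log2 ratio was 1.45 and 1.44 in the controls, against 0.20 and 0.35 in the treated libraries.

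Levels of different genes were set side by side as reads per kilobase of merged exons per 1000000 reads (RPKM). Zfp36 was the highest of the 10, at a mean of 160.8 RPKM with Ctrl MO and 190.6 with Reg1-MOs. With Ctrl MO the order went on with Malt1 (66.77), Zc3h12a (48.31), N4bp1 (31.12), Zc3h12c (27.76), Zfp36l2 (10.68), Rc3h1 (6.373), Zfp36l1 (3.729), Rc3h2 (2.900) and Zc3h12d (2.496). The Ctrl MO libraries of neighbours in this order did not overlap, with 2 libraries each. With Reg1-MOs, on this scale, Zc3h12a stood second, at 109.8 and 100.3 RPKM, above Malt1 at 52.71 and 59.19. There Zc3h12c (22.24 and 30.80) overlapped N4bp1 (29.71 and 30.22), and Zc3h12d (3.410 and 3.618) was above Rc3h2 (2.429 and 2.752). The median gene of the table was at 3.95 RPKM, so Rc3h2 and Zc3h12d lay below it in the mean of the 4 libraries and the other 8 above it.

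The order depends on the length used. Merged exons of Malt1 span 18.04 kb and 1 coding transcript 4.113 kb. Per length of 1 coding transcript, a scale added after the data were seen, Malt1 was first with Ctrl MO at 292.9, ahead of Zfp36, N4bp1 (58.63) was above Zc3h12a (50.54), and Rc3h2 (6.468) stood beside Rc3h1 (6.548). With Reg1-MOs on the same scale Malt1 (245.4) was again first, followed by Zfp36 (237.1) and Zc3h12a (109.9), which was above N4bp1 (56.46), and Rc3h2 (5.777) was above Zc3h12d (3.514). With Reg1-MOs, Zc3h12a thus stood above Malt1, and Zc3h12d above Rc3h2, per length of merged exons and not per length of 1 coding transcript. With Ctrl MO they stood below on both scales.

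**Figure D3:**
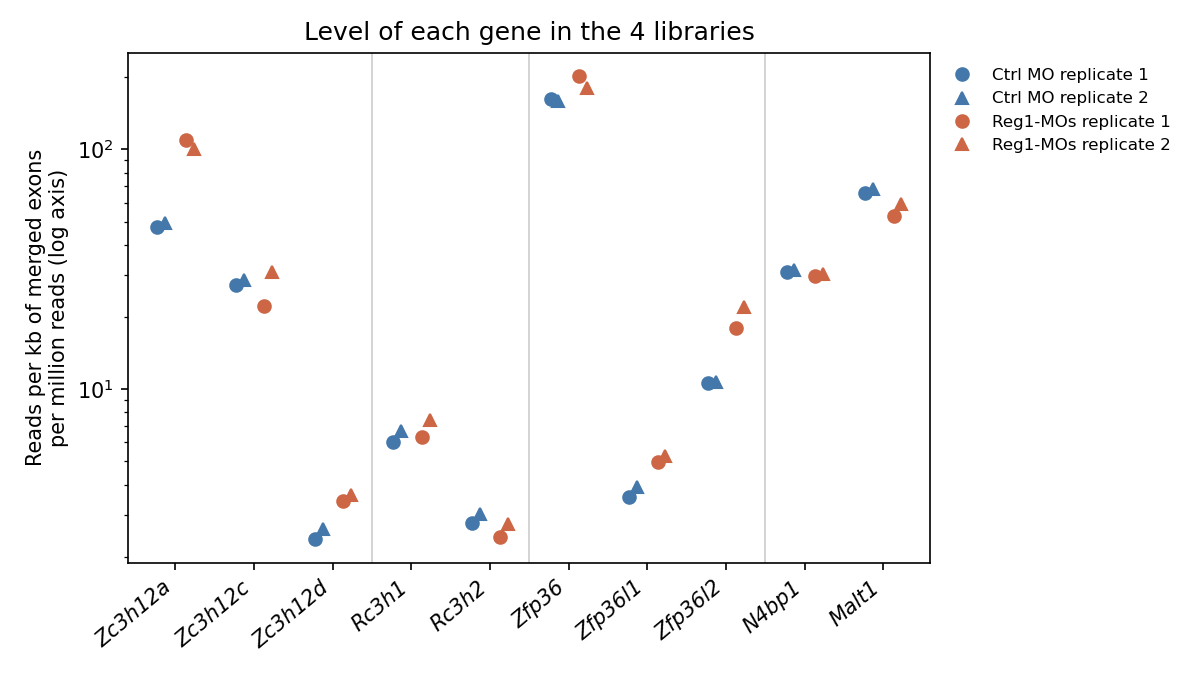
Level of each of the 10 genes in each of the 4 libraries, in RPKM on a log axis; circles are replicate 1 and triangles replicate 2. The Zc3h12a points move from 47.47 and 49.16 with Ctrl MO to 109.8 and 100.3 with Reg1-MOs, and those of N4bp1 lie between 29.71 and 31.50 in all 4.

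Genes that act on these proteins were taken from lists of pathway members, to be read beside the 12.2% of the whole table that was called. Of the partners of Malt1, Card9, a scaffold used in myeloid cells, stood at a log2 change of 0.07 (limma adjusted p = 0.694) and Bcl10, the adaptor between scaffold and Malt1, at 0.06 (adjusted p = 0.585).

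Among 25 genes that control Regnase-1 protein or work with it, 2 rose and none fell by limma (3 higher and 4 lower at an unadjusted p under 0.05, and no fall by limma-voom), with a median of -0.05. Ikbkg, the regulatory subunit of the IκB kinase complex that marks Regnase-1 for destruction, had 1220 and 1295 reads against 1872 and 1753. It rose by 0.57 (SE 0.07, adjusted p = 0.0039 by limma). Traf3ip2, the adaptor of interleukin-17 signalling, rose by 0.49 (SE 0.11), and its call ended without control 2 or either treated library (adjusted p = 0.0744 to 0.198). Arid5a, which counters Regnase-1 on Il6 mRNA, stood at -0.21 (adjusted p = 0.0773) and Upf1, the helicase Regnase-1 works with, at -0.11 (adjusted p = 0.325).

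Of 12 genes that control tristetraprolin by phosphorylation, 2 rose and none fell by limma (2 higher and 1 lower at an unadjusted p under 0.05, and no fall by limma-voom), with a median of -0.03. Both risers act in the p38 kinase pathway: Mapkapk3 (0.38, SE 0.07, adjusted p = 0.0168) and the p38-activating kinase Map2k3 (0.38, SE 0.08, adjusted p = 0.021). Each call ended without control 1, without control 2 and without treated 1 (adjusted p = 0.0646 to 0.177). Mapkapk2, the main tristetraprolin kinase, stood at -0.02, with 38477 and 37219 reads against 38342 and 34188.

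For the machinery that roquins and tristetraprolin recruit, by limma 0 of 15 CCR4-NOT genes rose or fell, with a median of -0.04 (1 higher and 2 lower at an unadjusted p under 0.05). Limma-voom called 1 fall, limma after quantile normalization 1 rise, and limma 1 fall without control 1 and 2 falls without treated 2. Of 8 decapping genes 0 rose or fell by limma or limma-voom (1 lower at an unadjusted p under 0.05), with a median of -0.15, and there was 1 fall without control 1 and 3 without treated 2. Of 11 other proteins that bind AU-rich or related elements 0 rose or fell by limma or limma-voom, with a median of -0.06. At an unadjusted p under 0.05, 1 was higher and 1 lower. Elavl1, a stabiliser of AU-rich mRNAs, stood at -0.01. Limma with a replicate block called 1532 genes of the table higher and 1891 lower. It called 1 rise and 5 falls among CCR4-NOT genes, 4 falls among decapping genes, and 1 rise and 1 fall among the other binding proteins. Among genes that control Regnase-1 it called 3 rises and 4 falls, and among those that control tristetraprolin 2 rises and 1 fall.

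Transcripts known as targets of the decay proteins moved both ways, by lists whose results on these data were partly known when they were drawn up. Of 14 Regnase-1 targets, 4 rose and 3 fell, with a median of -0.20. Among the rises were the neutrophil chemokines Cxcl1 (1.54, SE 0.08, limma adjusted p = 0.000126) and Cxcl3 (1.00, SE 0.12; adjusted p = 0.0657 without treated 1) and the NF-κB inhibitor gene Nfkbid (0.82, SE 0.08). The falls were the cytokine Il6, at 10161 and 9133 reads in the controls and 5197 and 4906 after treatment (-0.89, SE 0.07, limma adjusted p = 0.00103), the interleukin-2 receptor chain Il2ra (-1.20, SE 0.15) and Nfkbiz, a nuclear regulator of NF-κB (-0.54, SE 0.07). Rises were 2 without treated 1, and falls were 5 without treated 2. These 14 genes share Il6, Nfkbid, Nfkbiz and Irf4, which did not pass, with the 11 roquin targets. Of those 11, 3 rose and 3 fell, with a median of 0.11. The roquin list includes Zc3h12a itself, one of its rises. The B cell and dendritic cell activation marker Cd83 had 18363 and 18198 reads in the controls, against 13375 and 12434 in the treated libraries, and fell by 0.46 (SE 0.06, limma adjusted p = 0.00379). The stress-response gene Ier3 rose by 0.52 (SE 0.11), a call that ended without control 2 or treated 1 (adjusted p = 0.091 and 0.121).

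Of 22 tristetraprolin targets, 5 rose and 4 fell, with a median of -0.04. Tnf, the best-known of them, had 75178 and 70694 reads in the controls, against 79581 and 73915 in the treated libraries and did not pass (0.11, SE 0.07, limma adjusted p = 0.299). The interleukin-23 subunit gene Il23a had 123 and 141 reads against 327 and 312 and rose by 1.31 (SE 0.12). The chemokine Cxcl2 rose by 0.45 (SE 0.07), a call that ended without control 2 or treated 1 (limma adjusted p = 0.0928 and 0.0554). The inflammasome cytokine Il1b fell by 0.33 (SE 0.07), and leaving out any 1 library ended that call (adjusted p = 0.0672 to 0.286), as did quantile normalization (adjusted p = 0.125). Cxcl1 and Il6 are on this list too. The monocyte chemoattractant Ccl2 fell by 0.41 (SE 0.09, adjusted p = 0.0316 by limma), a call that ended without control 1 or either treated library (adjusted p = 0.0656 to 0.187). Rises were 2 without control 2 or treated 1, and falls were 1 or 2 without each library. A fit without a variance trend also ended the calls of Ikbkg, Traf3ip2, Mapkapk3, Map2k3, Cxcl2, Cxcl3, Il1b, Ccl2, Cd83, Nfkbiz and Ier3 (limma adjusted p from 0.0517 for Ikbkg to 0.139 for Ccl2). The stromal markers given above were lower in the same libraries as these changes.

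For Zc3h12a and Zfp36l2, the genes of most similar pattern were found by the Euclidean distance between log2 values centred on the Ctrl MO mean, over the 4 libraries and 9328 named genes averaging 50 reads or more. Nearest to Zc3h12a were Npdc1 (0.10), the chemokine receptor genes Ccr1 (0.10) and Cxcr4 (0.14), and Oit3 (0.11). Ccr1 had 211 and 239 reads in the controls, against 488 and 419 in the treated libraries. Nearest to Zfp36l2 were Rgs1 (0.07), an inhibitor of G protein signalling, Sema3c (0.08), Clmp (0.09) and Flrt2 (0.09). Rgs1 had 6765 and 6920 reads against 11587 and 12575. With 4 libraries such likeness says only that the size of the change and the order of the treated libraries were similar.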

How the data were processed

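Poly(A) RNA was read from directional libraries (NEBNext Ultra II), per the labels' protocols. The submitters' processing notes name cutadapt, FastQC, HISAT2 and mm10. No counter, strand setting or scaling is given in those sources. The values the authors deposited are log2, 1 column per library. In each column 100% of the genes came out within 0.01 of a whole number of reads after an offset of 0.5 read, so reads were recovered (medians of 404 to 437 per gene).

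The main test was limma 3.58.1 (R 4.3.3) with a mean-variance trend on the log2 values of all 11111 genes, unfiltered, with group as the only term, two-sided, Benjamini-Hochberg adjusted. Prior degrees of freedom were 5.47, residual 2. Shares and differences between members were tested by exact permutation over samples (scipy 1.17.1). The fit was tested on simulated data. Positions, exon lengths and 3′ UTR sequences are from GENCODE M21 (GRCm38, the assembly of mm10). The 3′ UTR of each gene is that of its coding transcript with the longest coding sequence.

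The members and lists were chosen with earlier results of these data known. The genes named are all 10 members, list members past the threshold (where over 6 passed, the 3 of smallest p in each direction) and 4 genes nearest in pattern to Zc3h12a and to Zfp36l2. Other list genes, such as Bcl10, Card9, Arid5a, Upf1, Mapkapk2, Elavl1 and Tnf, were named after their values were seen. The counts of the list of Malt1 partners are not reported here.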

Additional observations from a re-analysis of the deposited data

How the results depend on the processing

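Alternatives were quantile normalization, equal library totals, a minimum mean of 50 reads, an offset of 8 reads, no variance trend, limma-voom, a replicate block and leaving out each library, where the lone library of a group is assumed to vary like the others. Main counts were 691 genes higher and 670 lower, and 4 and 0 of the 10 members. Without a variance trend there were 195 and 182 genes and 1 member higher, and limma-voom called 1 member lower. With a replicate block there were 1532 and 1891 genes higher and lower and 5 and 2 members (the falls were Rc3h2 and Malt1); deviations of same-numbered libraries correlated at 0.096 across genes, so the numbers were not taken as pairs. Leaving out 1 library gave 249 to 530 genes higher and 258 to 860 lower, and 2 to 3 members higher and 0 to 2 lower. Zc3h12c ranged from -0.37 without Reg1-MOs replicate 2 to 0.15 without Reg1-MOs replicate 1, Rc3h1 from -0.06 to 0.23 without the same libraries, and N4bp1 stood at 0 with quantile normalization. The causes were not tested. Differences between members and family shares kept their direction in every alternative run for them. At 241 to 368 reads, Zc3h12d and Zfp36l1 are the members with the most counting error.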
